A study of Mus musculus with 18 samples.

Results

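The aminoacyl-tRNA synthetases are the enzymes that join each amino acid to its transfer RNA (tRNA). The gene list used here was given by name, as GENCODE M21 symbols, and was chosen with earlier results of these data known. It holds 36 genes of the 46167 that remained after transcripts were summed per gene. Of these, 20 encode synthetases of the cytosol and 16 encode synthetases of mitochondria. All 36 passed the filter on low counts and were tested among 17500 genes.

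A synthetase activates its amino acid with ATP and then transfers it to the tRNAs that carry the matching anticodon. The cytosolic enzymes supply the ribosomes that translate nuclear messages, and several of them sit in a multisynthetase complex held together by scaffold proteins. The mitochondrial enzymes are made from nuclear genes, are imported, and charge the tRNAs that read the few messages of the mitochondrial genome. An erythroid precursor makes globin at a high rate while its nucleus condenses and its mitochondria are later lost. Many cytosolic synthetase genes are known targets of ATF4, the transcription factor of the amino acid and integrated stress response, and in red cell precursors the heme-sensing kinase Eif2ak1 (HRI) feeds into the same response.

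The series examined PCBP1 and PCBP2, a pair of related proteins that bind poly(C) stretches of RNA, in mouse red cell formation. Progenitors were enriched from the livers of CD-1 embryos at E14.5 and infected at once with MSCV-PIG retroviruses, which carry puromycin resistance, GFP and a short hairpin RNA. Day 0 cells had grown for 48 hours after infection in expansion medium with stem cell factor, dexamethasone and erythropoietin, and Day 2 cells had spent a further 2 days in differentiation medium with erythropoietin. On each day there were 9 RNA-seq libraries, 3 for each of 3 groups: control cells, cells with PCBP1 knocked down and cells with PCBP2 knocked down. Controls carried a scrambled sequence (libraries SCR-1 and SCR-2) or one against luciferase (library LUC-1), and each knockdown group combines hairpins 1, 3 and 4. All groups, controls included, carry the vector and a hairpin, and the replicates of a knockdown group are hairpins of different number. Whether SCR-1 and SCR-2 carry different scrambled sequences was not settled from the labels.

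Libraries held 30635061 to 54096339 estimated reads at Day 0 and 27033440 to 38006881 at Day 2. Pcbp1 itself differed in PCBP1 knockdown by -2.59 on the log2 scale at Day 0 (edgeR quasi-likelihood test, adjusted p = 0.00109) and by -2.83 at Day 2 with adjusted p = 7.35e-05. Hairpin 3 left 59.4 CPM (counts scaled to a common library size) against 14.2 and 24.3 with hairpins 1 and 4 at Day 0. Pcbp2 differed by -2.01 in PCBP2 knockdown at Day 0 and by -2.49 at Day 2. All 10 erythroid markers were present in every library, with a summed level of 7184 to 11312 TPM (transcript abundance corrected for length and depth) at Day 0 and 397740 to 479823 TPM at Day 2. LUC-1 stood apart from the other controls, most at Day 2.

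The first sequence that carries a finding is the Aars2 exon whose use changed at Day 0. Aars2 encodes the mitochondrial alanyl-tRNA synthetase and lies on the plus strand of chromosome 17 of GRCm38, from 45506841 to 45520843. In the GENCODE M21 transcript the exon is number 16 of 22, at chr17:45517912-45518021, and it is coding throughout. The exon is in capitals, between the last 30 bases of the exon before it and the first 30 bases of the exon after it.
Aars2 exon 16 included: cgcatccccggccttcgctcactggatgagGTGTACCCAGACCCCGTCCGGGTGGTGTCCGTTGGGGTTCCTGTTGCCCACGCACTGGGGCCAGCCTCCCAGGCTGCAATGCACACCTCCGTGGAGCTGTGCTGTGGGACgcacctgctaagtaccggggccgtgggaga
The exon has 110 bases, of which 67.3% are G or C, and 110 is not a multiple of 3. Joining exon 15 to exon 17 therefore moves the reading frame. Read from the annotated start codon, the form without the exon keeps 710 codons, adds 69 codons in the new frame and then meets a TAA stop, against 980 codons in the annotated form. That stop lies 328 bases before the last exon junction. The sequence below starts 30 bases before the new junction and ends with the new stop in capitals.
Aars2 exon 16 skipped: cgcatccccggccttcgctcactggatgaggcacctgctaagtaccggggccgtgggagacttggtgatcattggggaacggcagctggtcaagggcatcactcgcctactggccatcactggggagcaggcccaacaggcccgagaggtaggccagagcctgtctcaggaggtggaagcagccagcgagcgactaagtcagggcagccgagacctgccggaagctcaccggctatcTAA

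The other sequences shown are the promoters of Aars and Yars, the cytosolic synthetase genes for alanine and tyrosine. Both were called lower in PCBP1 knockdown at Day 2. With a library left out in turn, the Aars call held in 6 of 6 fits and the Yars call in 2 of 6. Both windows hold a match to TGATGNAA, the form of site bound by ATF4 with its C/EBP partners. The windows run from 250 bases before to 50 bases after the RefSeq transcription start (GRCm38.p6), and matches on either strand are in capitals. The Aars window is on the plus strand at chr8:111033592-111033891, with 2 matches, both to the minus strand. The Yars window is on the plus strand at chr4:129189653-129189952, with 1 match that begins 3 bases after the start.
Aars promoter: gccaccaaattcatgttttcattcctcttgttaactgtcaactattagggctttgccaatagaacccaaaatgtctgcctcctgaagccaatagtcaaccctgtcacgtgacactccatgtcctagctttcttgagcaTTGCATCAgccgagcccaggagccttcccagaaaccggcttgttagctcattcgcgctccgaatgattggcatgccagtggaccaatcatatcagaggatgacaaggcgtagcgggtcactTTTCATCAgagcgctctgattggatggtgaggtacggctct
Yars promoter: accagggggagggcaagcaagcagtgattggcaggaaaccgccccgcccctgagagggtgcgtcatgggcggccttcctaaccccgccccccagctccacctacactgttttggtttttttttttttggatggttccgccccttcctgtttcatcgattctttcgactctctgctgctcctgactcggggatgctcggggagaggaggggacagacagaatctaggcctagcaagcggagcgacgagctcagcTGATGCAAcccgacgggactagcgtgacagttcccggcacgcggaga
RefSeq windows were matched for 12 of the 20 cytosolic and 14 of the 16 mitochondrial members. TGATGNAA, searched on both strands, was present in 5 of the 12 cytosolic windows (Aars, Gars, Iars, Tars and Yars) and in 0 of the 14 mitochondrial windows, against 3.97% of all 32851 windows. CACGTG, the palindromic E-box read by MYC and related factors, was present in 4 of the 12 (Aars, Farsb, Iars and Tars) and in 1 of the 14 (Ears2), against 7.15% of all windows. The windows of Sars and Eprs, which also fell in PCBP1 knockdown at Day 2, held neither motif. No window was matched for Nars, Mars and Cars, the other cytosolic members called lower in that comparison. Gars, Iars and Tars, whose windows hold TGATGNAA, were not called in that comparison, with log2 differences of -0.31, -0.23 and -0.06. A match describes these letters and does not show binding.

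In Day 0 control cells the cytosolic members were the more abundant class. The TPM scale corrects for transcript length, so it allows genes to be compared. The median cytosolic member stood at 141 to 146 TPM in the 3 Day 0 control libraries and the median mitochondrial member at 18.3 to 19.9 TPM. Nars, which charges asparagine tRNA, led the cytosolic class at 303 ± 17.8 TPM (SD, n = 3), followed by Gars for glycine at 297 ± 28.4 TPM and Sars for serine at 250 ± 32.2 TPM. Nars and Gars overlapped, as did Gars and Sars, while the lowest Nars library, at 283 TPM, lay above the highest Sars library, at 274 TPM. Wars, for tryptophan, was lowest at 51.9 ± 4.84 TPM. Among mitochondrial members Lars2, for leucine, stood far above the rest at 719 and 696 TPM in the scrambled controls and 1264 TPM in LUC-1, followed by Tars2 for threonine at 72.9 ± 3.65 TPM and Rars2 for arginine at 48.2 ± 3.52 TPM. Wars2 and Ears2, for tryptophan and glutamate, were lowest at 6.21 ± 1.02 and 6.64 ± 0.563 TPM and overlapped within their SD.

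For the same amino acid the cytosolic gene was the higher of the pair in Day 0 control libraries for every mitochondrial member except Lars2. The median ratio of cytosolic to mitochondrial TPM was 8.82 for Aars and Aars2, 14.6 for Sars and Sars2, and 1.66 for Tars and Tars2. For Lars and Lars2 it was 0.231. Without Lars2, the cytosolic class held 89.7% of the summed synthetase TPM in Day 0 control cells and 89.9% in Day 2 control cells. The near-equal shares do not show a steady class balance, because Fars2 made up most of the mitochondrial sum at Day 2. Fars2 held 13.3 of 368 TPM at Day 0 and 54 of 79.1 TPM at Day 2 (control means, without Lars2). The class medians went from 144 to 15.2 TPM for cytosolic and from 19.1 to 1.08 TPM for mitochondrial members. A share without Fars2 was not computed. With Lars2 the cytosolic shares were 71.8% and 57.5%, which rest on LUC-1. By library they were 75.3% and 75.1% in the scrambled controls and 65.1% in LUC-1 at Day 0, and 64.6%, 69.1% and 38.8% at Day 2.

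Of the 9 comparisons made, that between the days gave the most calls. On the CPM scale with TMM normalisation, which sets the bulk of genes level between libraries, 29 of the 36 members fell and 6 rose from Day 0 to Day 2 in control cells, and Cars was not called. Over all 17500 genes 42.4% fell and 40.5% rose, with a median difference of -0.05 on the log2 scale. In the cytosolic class 15 fell and 4 rose, with a class median of -1.32. In the mitochondrial class 14 fell and 2 rose, with a class median of -2.42. The calls are from edgeR's quasi-likelihood test with Benjamini-Hochberg adjusted p under 0.05, here and below.

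**Figure D1:**
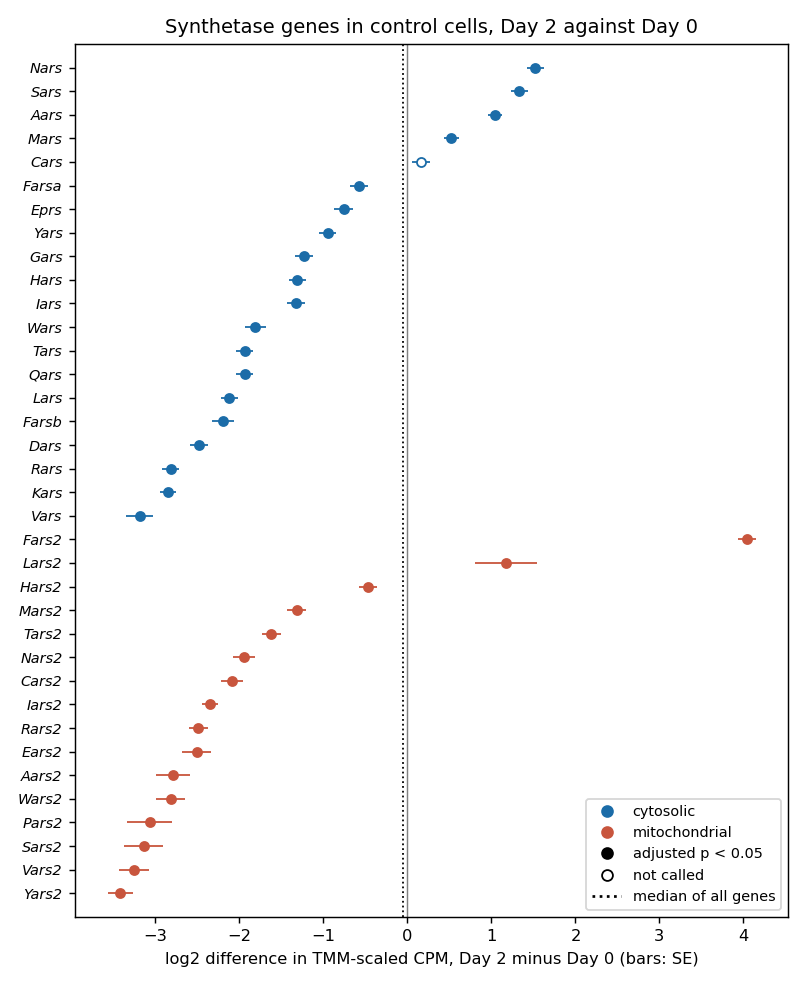
Log2 difference in TMM-scaled CPM between Day 2 and Day 0 control cells for the 36 members, with SE bars; blue is cytosolic, red mitochondrial, filled points passed the test. Most members lie well below the median of all genes (dotted, -0.05), while Fars2 at 4.04 and Nars at 1.52 lie above it (2.40 and -0.11 when scaled by library totals).

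The cytosolic genes that fell most were Vars for valine, Kars for lysine and Rars for arginine. Kars went from 191, 197 and 216 CPM at Day 0 (SCR-1, SCR-2, LUC-1) to 29.8, 26.9 and 26.9 CPM at Day 2. The fitted log2 difference was -2.85 ± 0.10 (SE), adjusted p = 1.62e-16, and the groups did not overlap. Vars differed by -3.19 ± 0.16 and Rars by -2.82 ± 0.10. Dars for aspartate differed by -2.48, Lars for leucine by -2.12 and Qars for glutamine by -1.94. At the other end of the class that fell, Farsa, a subunit of the phenylalanine enzyme, differed by -0.58 and its partner subunit Farsb by -2.20.

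The 4 cytosolic genes that rose on the TMM scale were Nars, Sars, Aars and Mars, for asparagine, serine, alanine and methionine; they were singled out after their values were seen. Nars went from 355 to 373 CPM at Day 0 to 950 to 1100 CPM at Day 2 across the 3 controls, a log2 difference of 1.52 ± 0.10 (adjusted p = 3.33e-12). Sars went from 182 to 216 CPM up to 454 to 551 CPM (1.33 ± 0.10), and Aars from 261 to 277 CPM up to 538 to 568 CPM (1.04 ± 0.08). Mars went from 138 to 144 CPM up to 187 to 215 CPM (0.52 ± 0.09). Cars, for cysteine, differed by 0.16 ± 0.11 (adjusted p = 0.168).

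The direction of those 4 depends on the scale, because the median of all genes is -1.68 between the days when libraries are scaled by their totals. By totals the differences were -0.11 for Nars, -0.30 for Sars, -0.60 for Aars, -1.11 for Mars and -1.47 for Cars, all above that median. As TPM, Nars went from 303 ± 17.8 to 218 ± 41.2, Sars from 250 ± 32.2 to 166 ± 33.9 and Aars from 113 ± 8.33 to 60.7 ± 9.85. By totals 19 cytosolic members fell and 0 rose, where 11368 of all 17500 genes fell and 3560 rose.  By rank of mean TPM within the class, Aars went from 18 to 3 and Mars from 16 to 4, while Kars went from 4 to 17.

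In the mitochondrial class, Yars2 for tyrosine went from 24.3, 24.9 and 29.3 CPM to 2.94, 2.52 and 1.80 CPM, a log2 difference of -3.42 ± 0.15 (adjusted p = 6.19e-15). Vars2 differed by -3.26, Sars2 by -3.14 and Pars2, for proline, by -3.07. Iars2 differed by -2.35 and Rars2 by -2.49. At Day 2 the lowest members rested on few reads: 10 to 48 estimated reads per library for Sars2 and 10 to 32 for Pars2. Hars2, for histidine, had the smallest fall of the class at -0.47 ± 0.11, but Hars and Hars2 overlap head to head on opposite strands and the strand setting of the counting is not given in the sources used here, so both are uncertain.

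Fars2, the single-chain mitochondrial synthetase for phenylalanine, went against its class. Its control libraries read 12.7, 13 and 12.2 CPM at Day 0, then 198, 188 and 237 CPM at Day 2. The log2 difference was 4.04 ± 0.11 (adjusted p = 1.06e-18), above that of 91.3% of the genes tested. It also rose when libraries were scaled by totals, by 2.40 on the log2 scale. As TPM it went from 13.3 ± 0.863 to 54 ± 3.88, and the cytosolic subunit Farsa stood at 8.82 times Fars2 at Day 0 and 0.396 times at Day 2 (medians over controls). The rise was in the protein-coding transcript Fars2-201, from 12.3 to 13.7 TPM up to 48.2 to 56.9 TPM. Of the words of 31 bases in Fars2 transcripts, 9.83% also occur in transcripts of other genes, most of them in Nrn1, and the part of such sharing in the rise was not tested. The share was 23.6% for Iars2 (most with Rab3gap2), 14.4% for Aars (most with its neighbour Exosc6), 8.53% for Cars2, 7.28% for Vars2 and 1.24% for Mars (most with Ddit3), and 0% for Nars and Aars2.

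**Figure D2:**
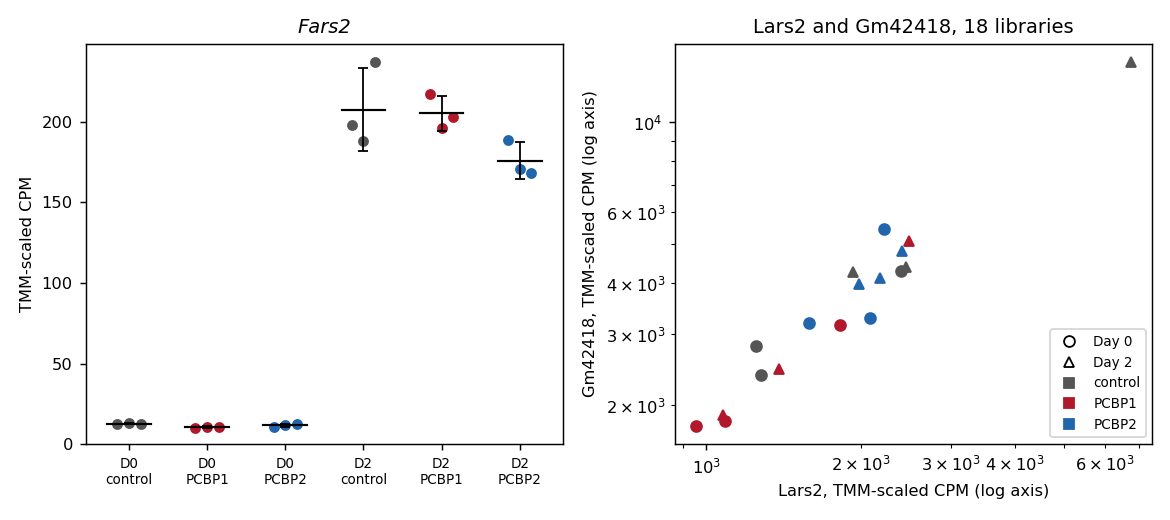
Left, TMM-scaled CPM of Fars2 in each library by group (line and bar, mean and SD, n = 3): every Day 2 library lies above every Day 0 library. Right, Lars2 against Gm42418 in the 18 libraries on log axes: the points follow one line, with LUC-1 at Day 2 highest on both.

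Lars2 also rose on the TMM scale, by 1.17 ± 0.37 (adjusted p = 0.00605), but its libraries spread widely. The controls stood at 1280, 1249 and 2401 CPM at Day 0 and at 2456, 1937 and 6739 CPM at Day 2, in the order SCR-1, SCR-2, LUC-1. LUC-1 was the highest control on each day, and the 2 days overlapped. Without LUC-1 at Day 2 the difference was 0.40 (adjusted p = 0.225), and by totals it was -0.50. Gm42418, an RNA annotated over a ribosomal RNA repeat and named here after its values were seen, followed Lars2 closely. Its CPM was 1.57 to 2.45 times that of Lars2 in all 18 libraries. Across the 18 libraries the Pearson correlation of log2 values was 0.976 (0.922 over 9 at Day 0, 0.993 over 9 at Day 2), as a description of points that share depth and scaling. Of the 17499 other genes, 1 correlated with Lars2 more closely. The longest run of bases shared by an annotated Lars2 and Gm42418 transcript was 12. The part of ribosomal RNA in the Lars2 values was not tested. Lars2 is counted with the mitochondrial class below.

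For some members, transcripts not annotated as protein coding, such as those with a retained intron, took a larger share of TPM at Day 2. Of the 25 members that have both kinds of transcript, 11 of 15 cytosolic and 6 of 10 mitochondrial members were higher in every Day 2 control than in every Day 0 control, and 0 were lower in that way. Over the 7742 tested genes with both kinds of transcript, 38.3% were higher and 6.56% lower. Among the members outside that count, Vars went from a mean of 41.8% to 39.5% and Pars2 from 2.08% to 0%. For Sars the share went from 0.310% ± 0.119 to 8.74% ± 2.76, for Mars from 12.3% ± 2.95 to 50.3% ± 3.68 and for Iars2 from 3.49% ± 0.483 to 34.9% ± 3.62. Sars-205, a retained-intron transcript, went from 0.516, 1.13 and 0.669 TPM to 19.4, 18.9 and 7.07 TPM. At Day 2 the controls and both knockdowns were close for Mars, with means of 50.3%, 53.8% and 51.2%. These shares come from estimated transcript abundances.

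PCBP1 knockdown at Day 0 left the cytosolic class near control levels. Over both classes, 1 member was called, Vars2 for valine, lower at a log2 difference of -0.63 ± 0.15 (adjusted p = 0.0441), where 0.834% of all genes were called lower. Vars2 stood at 21.9, 24.3 and 24.7 CPM in controls and at 14.8, 15.5 and 15.5 CPM with hairpins 1, 3 and 4, with no overlap. The class medians were -0.02 for cytosolic and -0.14 for mitochondrial members, against -0.01 for all genes. Aars2 stood at 18.9, 20.6 and 19.1 CPM in controls and at 12.1, 13.6 and 13.5 CPM in PCBP1 knockdown. The groups did not overlap, and the log2 difference was -0.58 ± 0.17 (adjusted p = 0.13).

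Fitted on the 9 Day 0 libraries alone, whose spread was smaller, 7 members were called. Yars was higher (0.20 ± 0.05, adjusted p = 0.0264), where 1.29% of all genes were called higher. Vars2 (-0.61), Aars2 (-0.57 ± 0.12, adjusted p = 0.0199), Sars2 (-0.42), Tars2 (-0.27), Vars (-0.25) and Aars (-0.18) were lower, where 4.32% of all genes were. Vars2 and Aars2 are rich in G and C, at 59.3% and 60% of bases, and with the trend on GC content removed their differences in the fit of 18 libraries were -0.33 (adjusted p = 0.796) and -0.26 (adjusted p = 0.931). The Vars2 call was also lost when any 1 of the 6 libraries was left out, with log2 differences of -0.68 to -0.59 and adjusted p of 0.12 to 0.262.

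Splicing of Aars2 changed in the same cells. In the authors' deposited table for PCBP1 knockdown at Day 0, a local splicing variation (LSV) is the set of junctions that leave or enter 1 exon, and its PSI (percent spliced in) is the share of use of a junction. An LSV was counted as changed where a junction had an expected change of at least 20 points with a probability of at least 0.95. Of 773 LSVs in 34 members, 2 changed, both in Aars2, and 0.0573% of all 120408 LSVs in that table did. Seen from the exon before, the junction that skips exon 16, from 45517830 to 45518150, was used at 4.9% in control and 46.3% in PCBP1 knockdown, an expected change of 42.6 points with probability 0.998 in the authors' deposited table. Seen from the exon after, it went from 2.9% to 39.0%, with an expected change of 36.9 points and probability 0.993. Each value in the authors' deposited table is 1 per group, with no spread over hairpins.

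**Figure D3:**
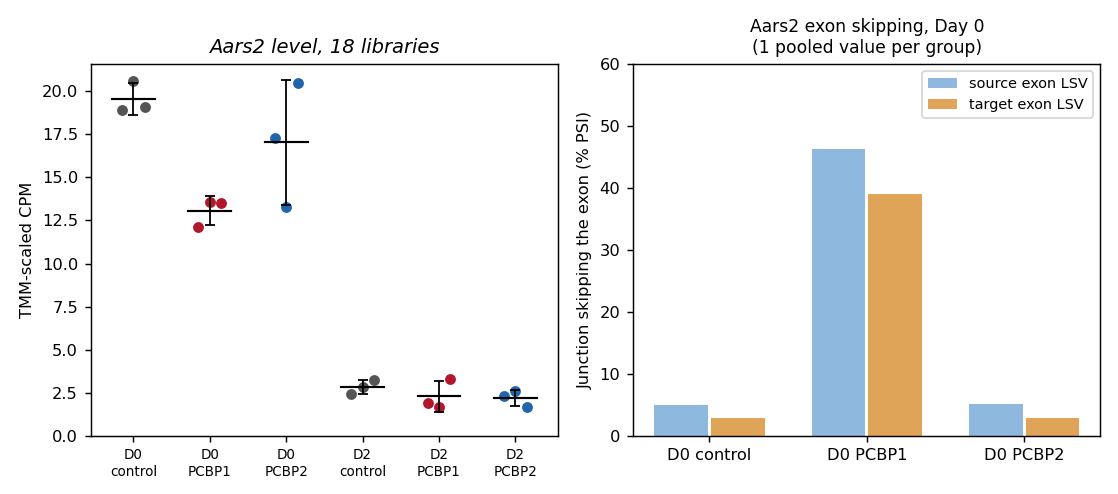
Left, TMM-scaled CPM of Aars2 in each library by group (line and bar, mean and SD, n = 3). Right, PSI of the junction that skips exon 16 at Day 0, 1 pooled value per group in the authors' deposited tables: it is 4.9% and 2.9% in control, 46.3% and 39.0% in PCBP1 knockdown and 5.1% and 2.8% in PCBP2 knockdown.

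The exon 16 sequence printed above is the one left out of these transcripts. In PCBP2 knockdown at Day 0 the authors' deposited table gives the skipping junction at 5.1% and 2.8%, and 0 of 777 LSVs in 34 members changed, where 0.0115% of all 122133 did. A further Aars2 junction in the authors' deposited table for PCBP1 knockdown, from 45518258 to 45518855, went from 0.2% to 13.3%, with an expected change of 7.1 points and probability 0.0155. Taking 1 LSV per gene, the largest expected changes in other members in the authors' deposited tables at Day 0 were 6.5 points in Tars2 in PCBP1 knockdown and -5.0 points in Cars2 and Fars2 in PCBP2 knockdown. No test of the difference between the tables was made, and both use the same controls. For Aars2 in PCBP2 knockdown the CPM values were 17.3, 13.3 and 20.5, which overlap the controls.

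At Day 2 Aars2 had no LSV in the authors' deposited tables, at a level of 1.64 to 3.31 CPM. Of 599 LSVs in 28 members 0 changed in PCBP1 knockdown, where 0.191% of 87825 did, and of 580 LSVs in 28 members 0 changed in PCBP2 knockdown, where 0.0718% of 86298 did. The 20 cytosolic and 8 of the 16 mitochondrial members had an LSV. The largest expected change in the authors' deposited tables was in Mars in PCBP1 knockdown, where the junction from 127296740 to 127296873 on chromosome 10 went from 50% to 82.6% (28.3 points, probability 0.78). In PCBP2 knockdown Tars had the largest, at -8.4 points.

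PCBP2 knockdown at Day 0 gave no called member by edgeR, where 0.0229% of all genes were called, and none by DESeq2. An unadjusted p under 0.05 from edgeR was reached by 0 members and by 571 of all 17500 genes. The class medians were 0.00 for cytosolic and 0.01 for mitochondrial members. The smallest p-values were those of Vars2, at 19.9, 18.3 and 21.6 CPM (log2 difference -0.25 ± 0.15), and Dars, at 0.15 ± 0.10, both with adjusted p = 1 from edgeR. Compared directly at Day 0, PCBP2 and PCBP1 knockdown gave 0 called members by edgeR, where 0.28% of all genes were called, and 0 by DESeq2. An unadjusted p under 0.05 from edgeR was reached by 4 members and by 1167 of all 17500 genes. The smallest p-values were those of Tars2 (0.27 ± 0.10, adjusted p = 0.486) and Vars2 (0.38 ± 0.15, adjusted p = 0.534). In the fit of the 9 Day 0 libraries Vars2 was higher in PCBP2 knockdown (0.36, adjusted p = 0.041; 1.07% of all genes were) and Yars lower (-0.21, adjusted p = 0.0453; 0.314% were).

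At Day 2 a set of abundant cytosolic synthetase genes was lower in PCBP1 knockdown on the TMM scale. Of the 20 cytosolic members, 7 fell and 2 rose, and of the 16 mitochondrial members 1, Lars2, fell and 2 rose. The Lars2 call was lost without LUC-1 (-0.40) and by library totals (-0.89, adjusted p = 0.0696). Over all genes 7.61% fell and 5.51% rose. The class medians were -0.18 for cytosolic and -0.01 for mitochondrial members, against 0.02 for all genes. The day comparison above uses the same Day 2 control libraries.

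**Figure D4:**
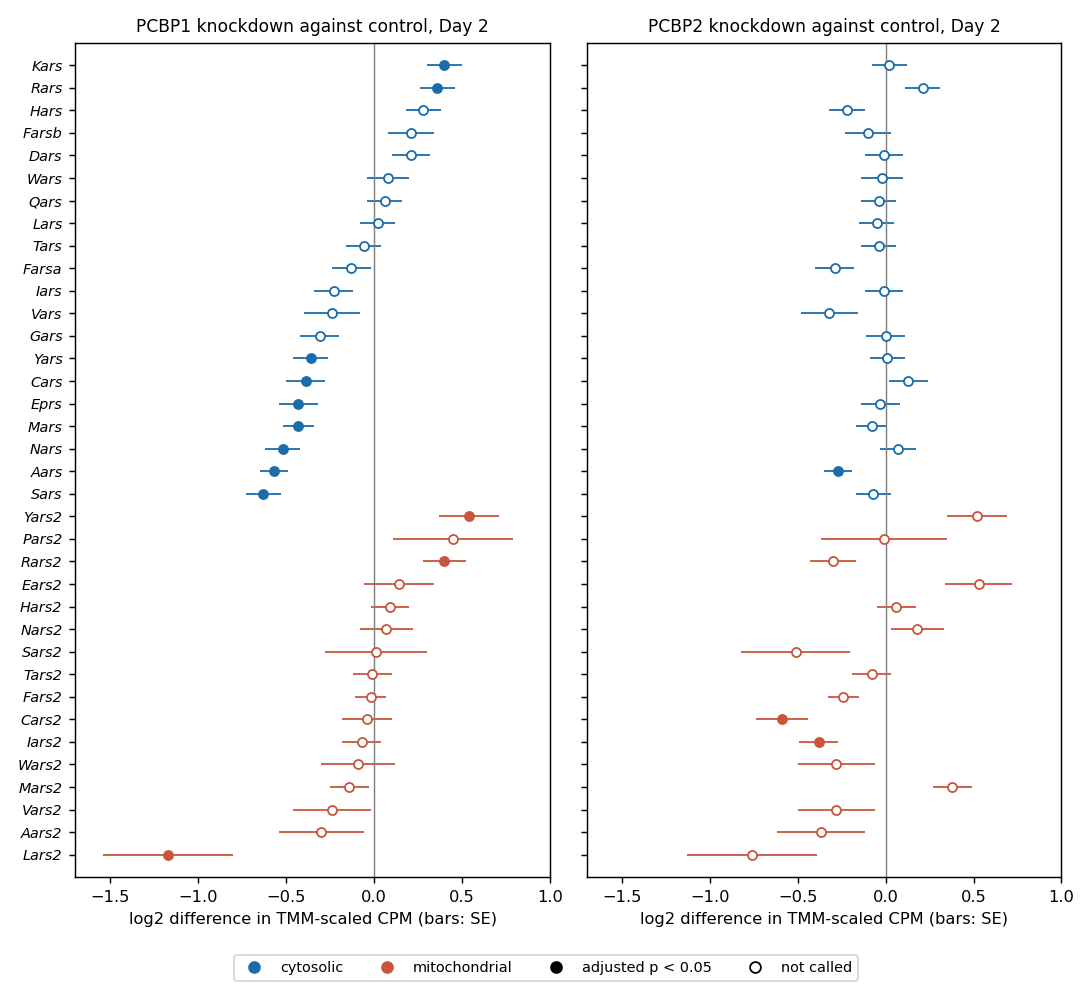
Log2 difference in TMM-scaled CPM against control at Day 2 for the 36 members, with SE bars, for PCBP1 (left) and PCBP2 knockdown (right); filled points passed the test. Sars, Aars, Nars and Mars lie between -0.63 and -0.43 on the left; on the right Aars is at -0.27.

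Control values of Aars were 568 CPM with SCR-1, 538 CPM with SCR-2 and 544 CPM with LUC-1. PCBP1 hairpins 1, 3 and 4 gave 370, 346 and 397 CPM. The groups did not overlap, and the log2 difference was -0.57 ± 0.08 (adjusted p = 6.33e-05). Sars stood at 532, 551 and 454 CPM against 290, 353 and 354 CPM, a difference of -0.63 ± 0.10 (adjusted p = 0.000389). All 3 knockdown libraries lay below all 3 controls for Sars, as they did for Aars. Nars stood at 1095, 1103 and 950 CPM against 602, 822 and 773 CPM (-0.52 ± 0.10, adjusted p = 0.00117), with hairpin 1 lowest and no overlap. Mars stood at 215, 206 and 187 CPM against 137, 166 and 146 CPM (-0.43 ± 0.09, adjusted p = 0.00211), again without overlap. Those 4 calls held when each of the 6 libraries was left out in turn, and in the fit of the 9 Day 2 libraries alone, where they were the only members called and 3.38% of all genes fell.

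**Figure D5:**
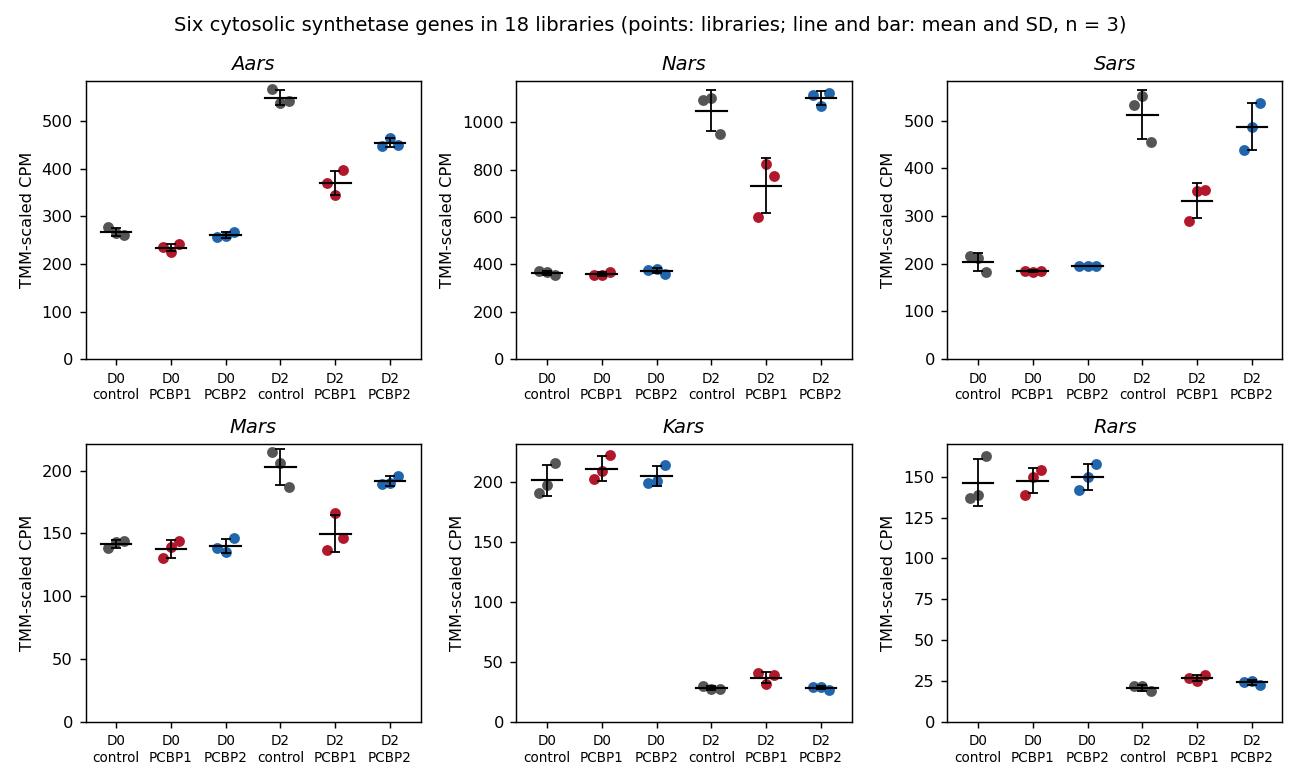
TMM-scaled CPM in each of the 18 libraries for 6 cytosolic members, with the mean and SD of each group (n = 3). Aars, Nars, Sars and Mars are higher at Day 2 than at Day 0 on this scale, though not by library totals, and lower in PCBP1 knockdown than in control at Day 2; Kars and Rars are low at Day 2 and slightly higher in PCBP1 knockdown.

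The 3 further cytosolic members that fell were Eprs, Cars and Yars. Eprs, the fused glutamate and proline enzyme of the multisynthetase complex, differed by -0.43 ± 0.11 (adjusted p = 0.0124), from 228 to 326 CPM in controls to 199 to 210 CPM. Cars differed by -0.39 ± 0.11 (adjusted p = 0.0187), but LUC-1 at 83.6 CPM fell within the knockdown range of 70.5 to 84.4 CPM. Yars differed by -0.36 ± 0.10 (adjusted p = 0.0197), from 56.2 to 72.2 CPM to 47.0 to 55.4 CPM. With a library left out in turn, Eprs was called in 3 of 6 fits and Cars and Yars in 2 of 6. Without hairpin 1 each of the 3 calls was lost (adjusted p over the 6 fits up to 0.118, 0.187 and 0.148). The 2 that rose were Kars, from 26.9 to 29.8 CPM to 31.5 to 40.3 CPM (0.40 ± 0.10, adjusted p = 0.00993), and Rars, from 18.6 to 21.9 CPM to 24.9 to 28.7 CPM (0.36 ± 0.10, adjusted p = 0.0224). Without hairpin 1 the adjusted p was 0.0522 for Kars and 0.0525 for Rars, and the Rars call was also lost without LUC-1 (0.105) or hairpin 4 (0.0961).

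In the mitochondrial class Yars2 and Rars2 were higher in PCBP1 knockdown at Day 2. Rars2 stood at 7.46, 6.29 and 6.23 CPM in controls and at 9.69, 7.94 and 8.79 CPM in knockdown (0.40 ± 0.12, adjusted p = 0.0316). Yars2 stood at 2.94, 2.52 and 1.80 CPM against 3.95, 3.29 and 3.42 CPM (0.54 ± 0.17, adjusted p = 0.0435). Each call was lost without SCR-2, LUC-1, hairpin 1 or hairpin 4, with adjusted p up to 0.128 for Rars2 and 0.193 for Yars2. Lars2 differed by -1.17 ± 0.37 (adjusted p = 0.0408), with overlap between groups. Without LUC-1 its difference was -0.40 (adjusted p = 0.478), and Gm42418 differed by -1.27 ± 0.39 in the same comparison.

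In this comparison the median of all genes was 0.02 with TMM and 0.25 when libraries were scaled by their totals. On that scale Aars (-0.34) and Sars (-0.40) remained lower, and the other 5 cytosolic calls were lost, with Nars at -0.29 (adjusted p = 0.0507), Mars at -0.21 (0.129), Eprs at -0.21 (0.265), Cars at -0.17 (0.362) and Yars at -0.13 (0.462). On it 5 cytosolic and 2 mitochondrial members were called higher, where 3454 of all 17500 genes were called higher and 626 lower. As TPM, Aars stood at 70.0, 61.8 and 50.3 in Day 2 controls and at 54.8, 50.3 and 58.5 with PCBP1 hairpins 1, 3 and 4, which overlap. The summed TPM of the cytosolic class was 561 to 843 in control, and the PCBP1 range of 653 to 725 lay within it. The Day 2 libraries also differed in cell markers. The summed erythroid markers were 428115 to 479823 TPM in control, 400161 to 410434 in PCBP1 and 397740 to 423307 in PCBP2 knockdown. The 8 granulocyte markers, all above 0 in every library, summed to 714 to 1302 TPM in control, 1149 to 1630 in PCBP1 and 1223 to 1506 in PCBP2 knockdown. The 5 megakaryocyte markers summed to 262 to 392 TPM in control, 471 to 536 in PCBP1 and 362 to 467 in PCBP2 knockdown, so PCBP1 knockdown and control did not overlap. The 5 endothelial and stromal markers summed to 2.24 to 3.9 TPM in control, 4.05 to 5.01 in PCBP1 and 3.99 to 4.88 in PCBP2 knockdown, with no overlap of either knockdown with control. The 9 macrophage markers summed to 96 to 158, 140 to 186 and 141 to 197 TPM. The part of these in the synthetase differences was not tested, and in bulk RNA a change in cell numbers and a change in RNA per cell cannot be told apart.

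PCBP2 knockdown at Day 2 called 3 members lower, where 3.75% of all genes were. Aars stood at 448, 466 and 451 CPM with hairpins 1, 3 and 4, below all 3 controls and above all 3 PCBP1 libraries (-0.27 ± 0.08 against control, adjusted p = 0.04). Cars2, for cysteine, stood at 2.92, 2.58 and 2.40 CPM against 3.66, 4.07 and 4.19 CPM (-0.59 ± 0.15, adjusted p = 0.0258). Iars2, for isoleucine, stood at 12.9, 16.8 and 16.1 CPM against 21.5, 19.4 and 18.7 CPM (-0.38 ± 0.11, adjusted p = 0.0472). The groups did not overlap for any of the 3. The Aars call held in 1 of 6 fits with a library left out, that without LUC-1, with adjusted p from 0.0275 to 0.0867. The Cars2 call was lost without hairpin 3 or hairpin 4 (adjusted p up to 0.082) and the Iars2 call without either scrambled control or without hairpin 1 or 4 (up to 0.169). In the edgeR fit of the 9 Day 2 libraries no member was called, where 4 of 17500 genes were called higher and 56 lower. DESeq2 on 18 libraries called 6 members, where it called 320 genes higher and 1238 lower. In the edgeR fit of 18 libraries an unadjusted p under 0.05 was reached by 10 members and by 3264 of all 17500 genes. Nars, Sars and Mars differed from control by 0.07, -0.07 and -0.08 and were not called.

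Compared directly at Day 2, 8 members were higher in PCBP2 than in PCBP1 knockdown and 4 were lower, where 4.79% of all genes were higher and 7.3% lower. Nars (0.59 ± 0.10, adjusted p = 0.000757), Sars (0.55 ± 0.10, adjusted p = 0.00189), Cars (0.52), Eprs (0.40), Yars (0.36), Mars (0.35) and Aars (0.29) were the 7 cytosolic members higher in PCBP2 knockdown. Hars (-0.50) and Kars (-0.38) were lower. In the mitochondrial class Mars2 for methionine was higher (0.53 ± 0.11, adjusted p = 0.00525), at 18.7, 21.7 and 26.1 CPM against 13.7, 16 and 16.4 CPM. Rars2 (-0.70 ± 0.12, adjusted p = 0.00147) and Cars2 (-0.56 ± 0.15, adjusted p = 0.0212) were lower. The calls for Nars, Sars, Hars and Rars2 held with each library left out. In the fit of the 9 Day 2 libraries Nars and Sars were higher, where 1.13% of all genes were, and Rars2 was lower, where 1.04% were.

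Whether the PCBP1 effect changed between the days was tested as an interaction. edgeR called no member, where 0.389% of all genes were called. An unadjusted p under 0.05 was reached by 11 members and by 2319 of all 17500 genes. The differences between the effects were -0.54 ± 0.14 for Yars (adjusted p = 0.084), -0.50 ± 0.14 for Nars (0.105), -0.48 ± 0.14 for Sars and -0.38 ± 0.11 for Aars (0.114). DESeq2 called 5 members in this comparison, all lower, where it called 348 of 17500 genes lower and 250 higher. Without LUC-1 at Day 2 edgeR called Nars and Yars, where it called 65 genes lower and 25 higher. For PCBP2 edgeR and DESeq2 called no member, edgeR called 0% of all genes, and 3 members had an unadjusted p under 0.05. The smallest p-values there were those of Cars2 (-0.50 ± 0.19) and Iars2 (-0.38 ± 0.14), with adjusted p = 0.449 for each. Of all genes 1594 had an unadjusted p under 0.05 in the PCBP2 interaction, and DESeq2 called 13 higher and 77 lower.

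The ATF4 list holds 25 genes of the amino acid response and shares no gene with the synthetases. In PCBP1 knockdown at Day 2, 12 of the 25 fell and 0 rose, where 7.61% of all genes fell, with a list median of -0.35 against 0.02 for all genes. Shmt2, a mitochondrial serine and glycine enzyme, differed by -0.89 ± 0.11 (adjusted p = 2.47e-05), Atf5 by -1.29 ± 0.16 and Slc7a5, the leucine transporter subunit, by -0.67 ± 0.09. Atf4 itself differed by -0.49 ± 0.08 (adjusted p = 0.000343). The count was 11 in the fit of the 9 Day 2 libraries, where 3.38% of all genes fell, and 12 by library totals, where 626 of 17500 genes fell. Asns, which makes asparagine, differed by -0.30 ± 0.13 and was not called. In PCBP2 knockdown at Day 2, 3 of the 25 fell, Cebpb (-1.22), Shmt2 (-0.48) and Atf5 (-0.64), where 3.75% of all genes fell. That count was 0 in the fit of the 9 Day 2 libraries, 0 with the GC trend removed, 1 by totals and 6 without LUC-1 or without hairpin 3. At Day 0, 2 fell in PCBP1 knockdown, Got1 (-1.33) and Shmt2 (-0.62), where 0.834% of all genes fell, and 0 in PCBP2 knockdown. The Day 0 count for PCBP1 was 5 in the fit of the 9 Day 0 libraries, where 4.32% of all genes fell. It was 4 without LUC-1 and 1 without SCR-2 or without hairpin 1.

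Between PCBP2 and PCBP1 knockdown at Day 2, 11 of the 25 ATF4 genes were higher and 0 lower, with Got1 at 1.25, Chac1 at 1.36 and Slc7a5 at 0.50, where 4.79% of all genes were higher. The count was 7 in the fit of the 9 Day 2 libraries and 5 without PCBP1 hairpin 1 or without PCBP2 hairpin 4. The change of the PCBP1 effect between days was called for Slc7a5 (-0.59 ± 0.13, adjusted p = 0.0449). Between the days in control cells 13 of the 25 rose and 10 fell on the TMM scale, where 40.5% of all genes rose and 42.4% fell. By totals 11 rose and 13 fell, where 3560 of 17500 genes rose and 11368 fell. On the TMM scale Ddit3 differed by 6.28, Sesn2 by 5.84 and Slc3a2 by 3.74.

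Of 16 genes of cytosolic elongation and tRNA handling, 3 fell and 2 rose in PCBP1 knockdown at Day 2, where 7.61% of all genes fell and 5.51% rose. By totals 9 rose and 1 fell, where 3454 of 17500 genes rose and 626 fell. In the fit of the 9 Day 2 libraries 1 fell and 0 rose, and the 5 calls became 1 without LUC-1 or without hairpin 1 and 2 without hairpin 4. The tRNA exporter Xpot differed by -0.58 ± 0.08 (adjusted p = 0.000107), Eef1g by 0.44 and the tRNA methylase Nsun2 by 0.50. In PCBP2 knockdown 2 fell, Eef2 (-0.41) and Aarsd1 (-0.70), where 3.75% of all genes fell. That count was 0 in the fit of 9 libraries, without SCR-2 or with the GC trend removed. Of 19 genes of mitochondrial translation, 4 rose and 2 fell in PCBP1 knockdown at Day 2, where 5.51% of all genes rose and 7.61% fell. The release factor Mtrf1 differed by 1.92 ± 0.22 (edgeR, adjusted p = 1.76e-05), Mtif2 by 0.45 and Gatb by 0.52. By totals 8 rose and 0 fell, where 3454 of 17500 genes rose and 626 fell. In the fit of the 9 Day 2 libraries 1 rose and 0 fell, and without LUC-1 the 6 calls became 1. In PCBP2 knockdown 2 rose and 2 fell, with Mtrf1 at 1.31, where 166 of 17500 genes rose and 656 fell. In the fit of 9 libraries 0 of the list were called. From Day 0 to Day 2 in control cells all 19 fell on either scale, with Tufm at -3.37 and Mrpl12 at -3.49 on the TMM scale. Of all genes 42.4% fell on that scale, and 11368 of 17500 fell by totals.

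None of the 3 multisynthetase scaffold genes was called in either knockdown against control. All 3 fell between the days in control cells, where 42.4% of all genes fell. Eef1e1 differed by -3.41, Aimp1 by -2.16 and Aimp2 by -0.61. Of 6 genes of the kinases and sensors, Eif2ak1, the heme-sensing kinase, differed by 4.77 ± 0.10 between the days in control cells and Ppp1r15a, the phosphatase subunit that reverses eIF2 phosphorylation, by 6.81. In PCBP1 knockdown at Day 2 Ppp1r15a (-0.42 ± 0.09, adjusted p = 0.00429) and Gcn1l1 (-0.38) fell and Eif2ak4, the kinase that senses uncharged tRNA, rose (0.53 ± 0.15, adjusted p = 0.0232). Over all genes 7.61% fell and 5.51% rose. Of the 3 calls in the list, 1 was left in the fit of the 9 Day 2 libraries and 1 without hairpin 4. By library totals 1 gene of the list rose and 0 fell, where 3454 of 17500 genes rose and 626 fell. In PCBP2 knockdown at Day 2 Gcn1l1 fell (-0.72 ± 0.13, edgeR adjusted p = 0.00374), where 3.75% of all genes fell. No gene of the list was called in the fit of 9 libraries or with the GC trend removed. By totals 1 rose and 1 fell, where 985 of 17500 genes rose and 227 fell.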

How the data were processed

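RNA was extracted with Trizol and libraries were made from total RNA with an Illumina TruSeq kit, per the labels' protocols. Per the submitters' processing notes, FastQC 0.11.9, STAR 2.5.3a, SAMtools 1.9, Salmon 0.11.3 and GRCm38 were used, with no strand setting given. The authors deposited for each library an estimated count and a TPM per transcript, and 4 tables of splicing variations with a PSI fraction per pooled group, an expected change on a signed score scale and a probability as another score; the tool behind these tables is not given in the sources used here.

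Estimated counts were summed per gene (GENCODE M21) and rounded. The edgeR filter kept 17500 genes, and 1 model of 6 group means was fitted to 18 libraries with TMM scaling (edgeR 4.0.16 in R 4.3.3, quasi-likelihood F test, Benjamini-Hochberg adjusted p under 0.05; DESeq2 1.42.0 as an alternative). Depth limits the precision of the mitochondrial members at Day 2. The script was tested on simulated data. The labels do not say whether samples came from separate cultures, so p-values reflect only how these libraries vary, which may be technical.

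Members, lists and tests were chosen with earlier results of these data known. Aars and Aars2 were named in every comparison, with up to 6 called members of each class by smallest p, up to 3 genes of each other list, and every changed LSV. Atf4, Asns and Gm42418 and the members that rose with differentiation are named outside that rule, after their values were seen. Gcn1 had no row under that symbol. Same-hairpin deviations across days correlated at -0.009 to 0.042, none above 0.1, so hairpin numbers were not taken as pairs. The alternatives were library totals, no filter, 9 libraries of a day, a transcript length offset, a GC trend, leaving out each library, and a hairpin block. Outliers in groups of 3 were not tested.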

Additional observations from a re-analysis of the deposited data

How the results depend on the processing

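The called members of the day comparison numbered 34 to 36 under every alternative, but by library totals the direction turned for Aars (-0.60), Cars (-1.47), Lars2 (-0.50), Mars (-1.11), Nars (-0.11) and Sars (-0.30), and Cars was at -0.02 without a filter and -0.01 to 0.28 with a control library left out. For PCBP1 knockdown at Day 0 the count of 1 called member became 0 by library totals, with the GC trend removed and with the length offset, 2 without a filter and with 9 libraries and the GC trend removed, 7 with 9 libraries and with those without LUC-1, and 0 to 0 with 1 library left out. For PCBP1 knockdown at Day 2 the 12 became 4 with 9 libraries, 3 with the GC trend also removed, 5 without LUC-1 as well, and 5 to 11 with 1 left out (5 without PCBP1 hairpin 1, 7 without hairpin 4). For PCBP2 knockdown at Day 2 the 3 became 0 with 9 libraries, with or without LUC-1, 6 with DESeq2, 1 with the GC trend removed, 1 without a filter, and 0 to 4 with 1 left out (0 without PCBP2 hairpin 4, 1 without SCR-1, SCR-2 or PCBP2 hairpin 3). Between knockdowns the 0 at Day 0 became 2 with 9 libraries and 1 without a filter, and the 12 at Day 2 became 3 with 9 libraries, 3 with the GC trend also removed, and 5 to 12 with 1 left out (5 without PCBP1 hairpin 1 or PCBP2 hairpin 4). For the change of effect between days, PCBP1 gave 5 with DESeq2, 1 with the GC trend removed, 1 without a filter and 0 to 2 with 1 left out (2 without LUC-1 at Day 2), and PCBP2 gave 1 without a filter and 0 to 0 with 1 left out. The cause of these shifts was not tested.

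Values of Aars and Aars2 that were not called changed sign in 5 cases: Aars in PCBP2 knockdown at Day 0 (0.02 with the GC trend removed), Aars2 in PCBP1 knockdown at Day 2 (0.04 with the GC trend removed, also with 9 libraries), Aars2 between knockdowns at Day 2 (-0.33 to 0.27 with 1 left out), and Aars2 in the change of effect (0.05 by totals for PCBP2, -0.09 to 0.5 with 1 left out for PCBP1). The cytosolic share of summed TPM at Day 0 moved in control from 71.8% to 65.6% as CPM and 89.7% without Lars2, in PCBP1 knockdown from 75.4% to 69.9% and 90.5%, and in PCBP2 knockdown from 69.1% to 62.2% and 89.7%. At Day 2 it was 57.5% in control, 64.5% in PCBP1 and 65.8% in PCBP2 knockdown (57.2% as CPM), and 89.9%, 87.0% and 91.0% without Lars2. The hairpin as a replicate block gave 35 called members between the days and 0 in each change of effect; no other paired fit applied, since hairpins of different groups share only a number. TGATGCAA in place of TGATGNAA was in 4 cytosolic windows in place of 5, and the LSV counts did not change at a probability of 0.80 or a change of 30 points. Fits on 9 libraries of the day without LUC-1 or with the GC trend removed, the fit without both LUC-1 libraries and the class shares without Lars2 were chosen after seeing the data.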
